A study of Triticum aestivum with 20 samples.

Results

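Stretches of the wheat leaf genome in chromatin state E1 that lie directly beside a stretch in state E2 were described here, together with the states of the same bases in vernalized leaf. They were chosen by a rule on the leaf segmentation alone: neighbouring segments of the same state were merged into runs, and an E1 run was kept if the run directly before it, after it, or on both sides was in E2. The rule selected 73691 of the 88086 E1 runs in leaf, which is 83.7% of the runs and 82.7% of the E1 bases (33.1 Mb). Of these bordering runs, 25131 (34.1%) had E2 on both sides and 48560 (65.9%) had E2 on one side. The 14395 E1 runs with no E2 neighbour, 6.95 Mb in all, serve as the comparison.

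The study profiled leaves of the winter wheat cultivar AK58 by chromatin immunoprecipitation and sequencing (ChIP-seq) for H3K4me3, H3K36me3, H3K27ac and H3K27me3, with input controls, in 20 libraries, 10 for each condition. Vernalized leaf came from plants kept for 1 month at 4 °C and then for 1 day in the greenhouse, and leaf came from plants grown for 2 weeks after germination with no cold. Plant age, cold and the return to warmth differ together between the conditions and cannot be told apart. The deposited values are 1 segmentation per condition into the 9 states E1 to E9, made by the authors with ChromHMM from the peaks of the 4 marks and of accessible chromatin, in bins of 200 bp on IWGSC RefSeq v1.0. With no values for single libraries, differences between the conditions have no replicate spread and were not tested.

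In plant genomes, H3K4me3 and H3K27ac mark the region around the start of active genes, where chromatin is accessible to transcription factors, while H3K36me3 is laid down along the transcribed body of the gene. A border between a fully marked, accessible state and an H3K36me3 state is therefore a common feature of active genes, as background. By the order in which the study shows its states, E1 is accessible with strong H3K27ac, H3K36me3 and H3K4me3. E2 holds mainly H3K36me3 with weak H3K27ac and H3K4me3, E6 is accessible with some H3K27ac, E7 is accessible without the histone marks, and E9 is unmodified. H3K27me3, the mark of Polycomb repression, defines E5, and it is joined by other marks in the mixed states. The files alone hold no means to verify this order, and an equal number in the 2 conditions need not have an equal definition.

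Most bordering runs were short, and the both-sided ones held nearly all of the very long ones. The values in this paragraph come from the leaf segmentation that chose the runs and are a description. Runs with E2 on both sides averaged 486 bp (median 200 bp), those with E2 on one side 430 bp (median 400 bp), and the other E1 runs 482 bp (median 200 bp). A single 200 bp bin made up 56.1% of the both-sided runs, 43.1% of the one-sided runs and 59.6% of the other E1 runs. Above 2000 bp there were 646 both-sided runs, which held 24.3% of the bases of their set, against 196 one-sided runs with 2.75% of theirs. Above 5000 bp there were 182 both-sided runs, 8 one-sided runs and 1 other E1 run. The bordering runs longer than 5000 bp were found on all 21 chromosomes, with 62 in the A, 70 in the B and 58 in the D sub-genome, and they fell into 154 different windows of 1 Mb.

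**Figure D1:**
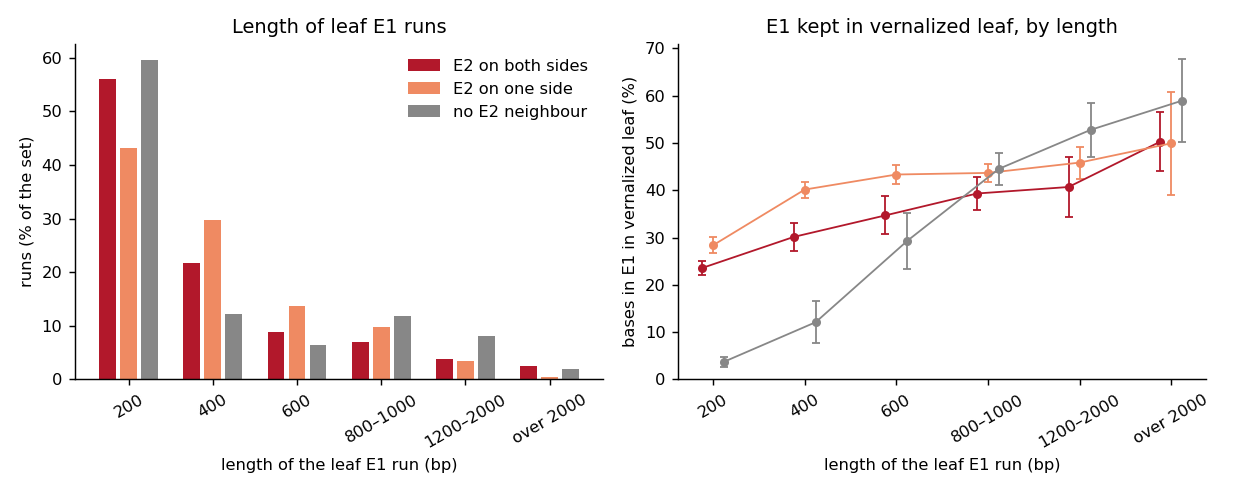
Left, share of leaf E1 runs in each length class (bars, % of the set), for runs with E2 on both sides, on one side and on no side. Right, share of the bases of these runs in E1 in vernalized leaf (points, %), with the SD over 21 chromosomes as error bars. The kept share of the both-sided runs climbs with length, 23.6% at 200 bp and 50.3% above 2000 bp, and the line of the runs without E2 starts at 3.74% and crosses both others.

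On the side away from E2, one-sided runs met accessible chromatin in most cases. The state there was E7, accessible only, for 26954 runs (55.5%), unmodified E9 for 16286 (33.5%) and E6, accessible with H3K27ac, for 4365 (8.99%). The repressed state E5 and the mixed states E3, E4 and E8 together stood opposite E2 at 955 runs (1.97%). The E7 neighbour was narrow, with a median of 200 bp, and 74.0% of these E7 runs were followed by E9. An E2–E1–E7–E9 order was thus the most frequent arrangement among the one-sided runs. Where E6 was the other neighbour its median length was 600 bp, and 56.7% of these E6 runs led on into a further E2 run and 23.2% into a further E1 run. The E9 neighbour had a median length of 5800 bp. Sides of the other E1 runs met E7 in 49.1%, E9 in 28.6% and E6 in 15.6% of cases.

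One-sided runs had no preferred direction along the chromosome. E2 lay at the higher coordinate in 24265 of them and at the lower coordinate in 24295, a share of 50.0% (95% Wilson interval 49.5% to 50.4%) for the higher side. The strand of genes was not used here.

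By their medians the E2 flanks were longer than the E1 runs, though single runs were not compared with their own flanks. Next to one-sided runs the E2 run had a median length of 1000 bp (quartiles 400 and 2600 bp). Next to both-sided runs the flanks were unequal, with a median of 400 bp for the shorter and 1800 bp for the longer of the pair. Of all E2 runs in leaf, 19192 (10.2%) had E1 at both ends, 60438 (32.2%) had E1 at one end and 108304 (57.6%) had none. The median lengths of these 3 kinds were 400, 1200 and 600 bp.

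In vernalized leaf, E2 runs with E1 at both ends had 78.5% of their bases in E2 and 7.95% in unmodified E9. Those with E1 at one end had 80.9% in E2 and 12.8% in E9, against 55.6% and 37.0% in E2 runs with no E1 end. Joined stretches of the activated states E1, E2, E6 and E7 that held a bordering run numbered 52545 and had a median length of 3000 bp, against 400 bp for the 192781 stretches that held none. The former hold an E1 and an E2 bin by definition, and a longer stretch has more room for a bordering run. Their greater length is thus partly set by the definition. A single bordering run lay in 69.4% of the stretches, a pair in 23.5% and 3 runs in 5.27%, and the highest number was 9.

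Just inside the rule were 8708 one-sided runs whose E2 neighbour was a single bin, with a median length of 400 bp. They had 44.2% of their bases in E1 in vernalized leaf. Just outside it, 1671 of the other E1 runs had E2 only beyond 1 bin of another state. That state was E7 on 58.9% and E6 on 32.5% of these sides. These runs had a median length of 200 bp and 30.3% of their bases in E1. The sets were not matched in length, with which the E1 share also went.

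In vernalized leaf the bordering runs were for the most part still in an activated state, and over all runs together more of their bases were called E2 than E1. Of the 33.1 Mb, 38.6% ± 1.04 (SD over 21 chromosomes) was in E1 and 45.6% ± 1.30 in E2. In runs of at least 600 bp the order of these 2 states turned, with 43.9% in E1 and 43.2% in E2, and without the first and last bin of these runs it was 49.9% and 42.0%. E6 took 5.89% ± 0.670, E7 2.41% ± 0.254 and unmodified E9 6.03% ± 0.430. The repressed and mixed states E3, E4, E5 and E8 together took 1.47%. Over the whole genome in vernalized leaf, E1 covered 0.205%, E2 1.95% and E9 93.5%. The total length of E1 was 28.8 Mb in vernalized leaf and 40.0 Mb in leaf, a ratio of 0.719, while that of E2 was 274 Mb and 278 Mb, a ratio of 0.988. The precision of the calls depends on the depth of the libraries, which the segmentations do not hold.

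Counted as runs, 40631 bordering runs (55.1%, 95% Wilson interval 54.8% to 55.5%) had no E1 base in vernalized leaf. The background over all leaf E1 runs was 58.5%. Wholly E1 were 15962 (21.7%, background 19.1%), and wholly E2 were 27633 (37.5%, background 34.0%). Wholly unmodified were 4615 (6.26%, background 9.42%). Since bordering runs make up most of the background, each of these shares lies near it by construction. In vernalized leaf, 71.4% of the bordering runs lay wholly in a single state and 23.2% were E1 in part. These intervals cover counting error only. Among runs of at least 600 bp, 28.9% had no E1 base and 12.2% were wholly E1. By length class, the share with no E1 base was 33.8% at 600 bp, against 35.9% over all leaf E1 runs. From 800 to 1000 bp it was 26.5% against 26.8%. It was 22.9% against 19.8% from 1200 to 2000 bp, and 15.1% against 12.1% above 2000 bp. With E1 within 200 bp counted as E1, 43.8% of all bordering runs were wholly E1, a setting given without a background.

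Runs with E2 on both sides had more E2 and less E1, E6, E7 and E9 in vernalized leaf than those with E2 on one side. E2 covered 57.0% of the both-sided and 38.9% of the one-sided bases, and E1 36.3% and 40.0%. E6, E7 and E9 were at 2.46%, 0.676% and 2.74% in both-sided runs, against 7.89%, 3.42% and 7.95% in one-sided runs. Averaged over the 7 homoeologous chromosome groups, each of which joins the A, B and D copies of a chromosome, the difference was 18.1 ± 1.57 percentage points for E2 and −3.69 ± 2.09 for E1 (SD). It was −5.40 ± 0.471 for E6, −2.75 ± 0.270 for E7 and −5.19 ± 0.571 for E9. For each of the 5 states all 7 chromosome groups had the same direction, which gives p = 0.0156 in an exact sign-flip permutation test (two-sided), the smallest value that 7 groups allow (Benjamini-Hochberg adjusted p = 0.0276 over 30 comparisons). Chromosome groups are not replicate plants, so the test speaks of evenness along the genome within 1 segmentation per condition. The sets differ by the rule in how many of their borders face E2, and many runs are a single bin. A small shift of borders thus gives more E2 and less E6, E7 and E9 in both-sided runs, and the test cannot set this apart. The comparison was not repeated with end bins left out. The E1 difference was −1.20 points among all runs of at least 600 bp together (adjusted p = 0.449 in the exact permutation test) and −6.06 points with length classes standardised (adjusted p = 0.0293). The former set mixes length classes. At 600 bp, E1 was at 34.7% ± 4.03 in both-sided and 43.3% ± 1.95 in one-sided runs (SD over 21 chromosomes). From 800 to 1000 bp it was at 39.3% ± 3.47 and 43.7% ± 1.96, and from 1200 to 2000 bp at 40.7% ± 6.31 and 45.8% ± 3.40. Above 2000 bp the shares were 50.3% ± 6.21 and 49.9% ± 10.8.

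**Figure D2:**
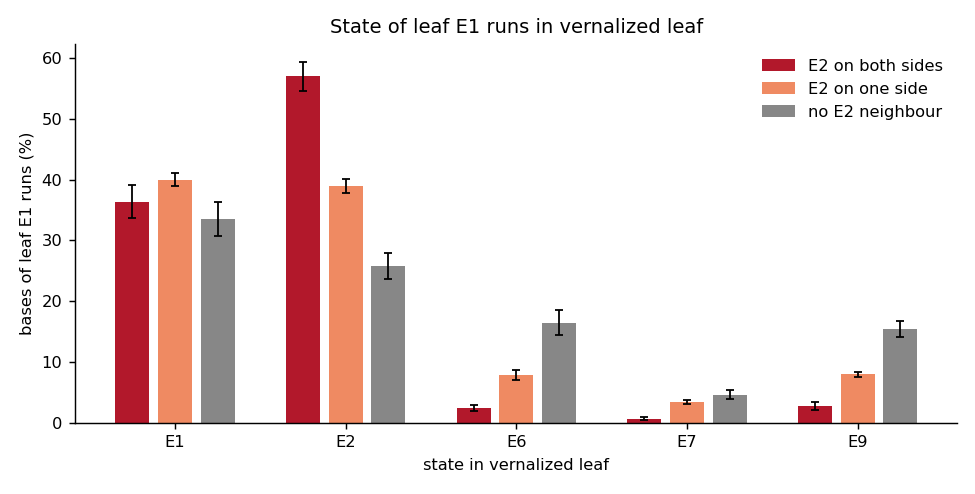
State in vernalized leaf (horizontal axis) of the bases of leaf E1 runs (bars, %), for runs with E2 on both sides, on one side and on no side, with the SD over 21 chromosomes as error bars. E2 falls stepwise over the 3 sets, 57.0%, 38.9% and 25.8%, and E6 and E9 climb in the same order.

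As runs, 13950 both-sided runs (55.5%) were wholly E2 in vernalized leaf, against 13683 one-sided runs (28.2%). The background over all leaf E1 runs was 34.0%. Wholly E1 were 4909 both-sided runs (19.5%) and 11053 one-sided runs (22.8%), beside the background of 19.1%. Wholly E9 were 638 both-sided runs (2.54%) and 3977 one-sided runs (8.19%), beside 9.42%.

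Bordering runs differed from the E1 runs without E2 in all 5 states. E2 covered 45.6% of bordering bases and 25.8% of the bases of the other E1 runs, E6 5.89% and 16.5%, and E9 6.03% and 15.4%. The mean difference over the 7 chromosome groups was 19.8 ± 1.61 points for E2, −10.6 ± 0.692 for E6 and −9.48 ± 0.800 for E9 (SD). It was 5.12 ± 1.63 for E1 and −2.23 ± 0.342 for E7. All 7 groups had the same direction for each state (exact sign-flip permutation test, p = 0.0156, adjusted p = 0.0276). The rule gives only the bordering runs an E2 neighbour, so the directions for E2, E6, E7 and E9 were again partly set by the choice of runs.

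The direction for E1 depended on run length. Single-bin bordering runs had 26.4% ± 1.31 of their bases in E1 in vernalized leaf (SD over 21 chromosomes), against 3.74% ± 1.05 in single-bin runs without E2. At 400 bp the shares were 37.4% ± 1.67 and 12.1% ± 4.47, and at 600 bp 41.2% ± 1.88 and 29.3% ± 5.92. From 800 to 1000 bp they were 42.5% ± 1.57 and 44.5% ± 3.45, a difference within the spread over chromosomes. From 1200 to 2000 bp they were 43.9% ± 2.82 in bordering runs and 52.8% ± 5.63 in the other runs. Above 2000 bp they were 50.2% ± 5.49 and 59.0% ± 8.73, a difference about as large as the spread. Over runs of at least 600 bp the mean difference was −4.30 points (adjusted p = 0.0361, exact sign-flip permutation test), opposite in sign to that over all runs. That set mixes length classes and is not a comparison at like length. With length classes standardised the mean difference over all runs was 9.69 points. Up to 600 bp, E1 runs away from E2 thus had a lower share of bases in E1 than bordering runs of like length. From 1200 bp up their share was higher, with a wide spread over chromosomes.

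Within the bordering runs, E1 in vernalized leaf also went with length. The E1 share was 23.6% ± 1.57 in both-sided runs of 200 bp and 50.3% ± 6.21 in those above 2000 bp, and 28.4% ± 1.64 and 49.9% ± 10.8 in one-sided runs (SD over 21 chromosomes). At 400 bp the both-sided runs had 30.1% ± 3.02 and the one-sided runs 40.1% ± 1.68. E9 went the other way, with 11.0% of the bases of single-bin bordering runs and 1.16% of those above 2000 bp. Of the 646 both-sided runs above 2000 bp, 103 (15.9%) had no E1 base in vernalized leaf. The background over all leaf E1 runs of this length was 135 of 1116 (12.1%). It was 24 of 196 (12.2%) in one-sided runs and 8 of 274 (2.92%) in runs without E2. The bases of the 646 both-sided runs were 50.3% E1 and 49.0% E2, with 0.363% in E6 and 0.316% in E9. The 196 one-sided runs of this length had 30.8% in E2, 13.0% in E6 and 5.54% in E9.

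The states in vernalized leaf differed between the ends of a one-sided run. In runs of at least 2 bins, the bin next to E2 was in E2 in 50.3% ± 1.17 of runs (SD over 7 chromosome groups), against 28.4% ± 0.703 for the bin at the outer end. E6 stood at 3.0% ± 0.192 in the E2-facing bin and 14.0% ± 0.942 in the outer bin. E7 was at 0.641% ± 0.237 and 8.02% ± 0.697, and E9 at 3.36% ± 0.380 and 11.4% ± 0.551. E1 itself was at 40.7% ± 0.885 in the E2-facing bin and 36.6% ± 0.811 in the outer bin, a difference of 4.11 ± 1.17 points. All 5 differences had the same direction in 7 of 7 chromosome groups (exact sign-flip permutation test, p = 0.0156, adjusted p = 0.0276). The rule places E2 beside the one bin and never beside the other. A small shift of either border thus gives the directions seen for E2, E6, E7 and E9. For E1 the direction depends on which border moved inward more often. In one-sided runs overlapped by exactly 1 E1 run of vernalized leaf, the outer edge lay inside the leaf run in 32.4%. The E2 edge lay inside in 27.9%. For all 5 states the test cannot tell such a shift from another difference between the ends. In runs of at least 600 bp the E1 difference was 2.62 points with an adjusted p of 0.0938 (exact permutation test). Where E9 was the other neighbour the E1 difference was 11.7 points.

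**Figure D3:**
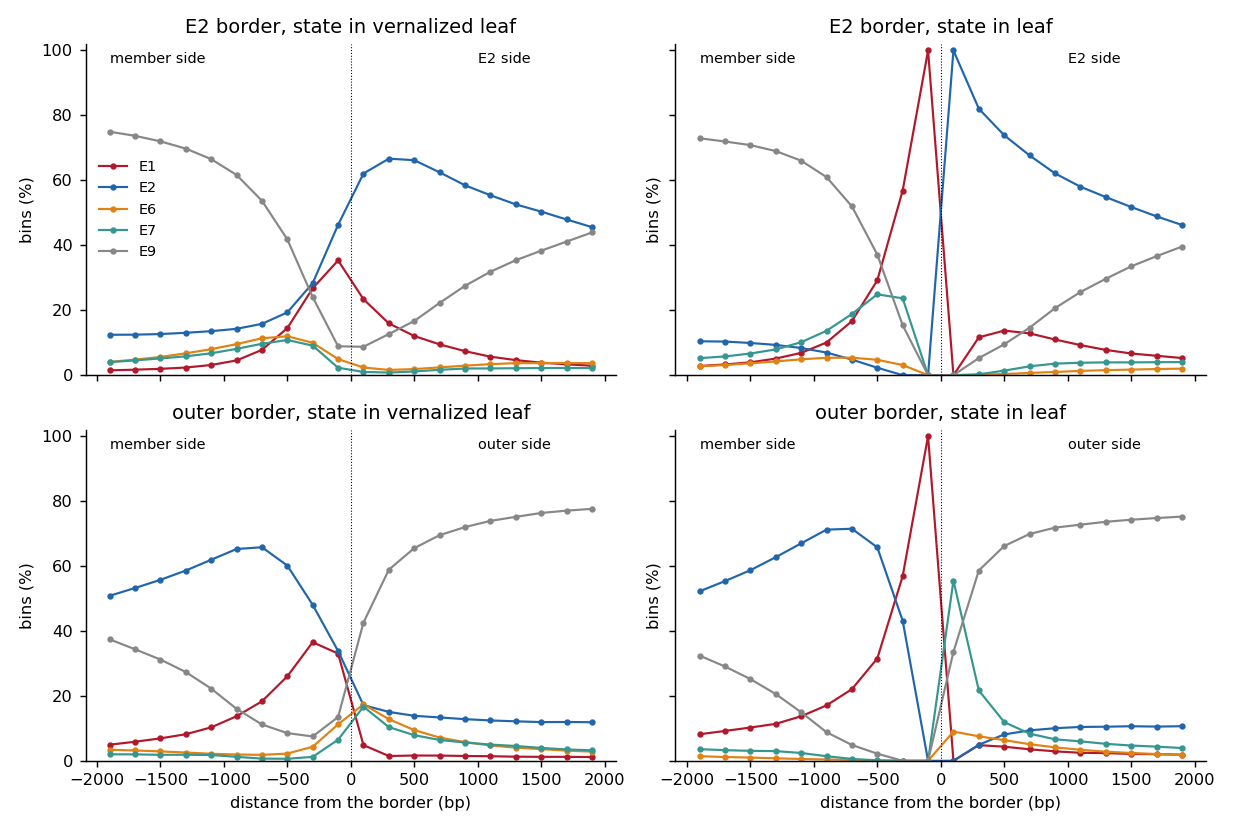
Share of bins (%) in E1, E2, E6, E7 and E9 by distance (bp) from the E2 border (top) and the outer border (bottom) of the 48560 leaf E1 runs with E2 on one side, in vernalized leaf (left) and leaf (right). The leaf panels show 100% E1 on the member side of the border by definition, bins farther than the run's length lie beyond it, and in vernalized leaf E1 peaks at 35.3% next to the E2 border and at 36.5% in the second bin from the outer border.

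The profile across the E2 border was smooth in vernalized leaf. In the last bin of the leaf E1 run 35.3% were E1 and 46.3% were E2, and in the first bin of the leaf E2 flank 23.4% were E1 and 62.1% were E2. At 900 bp into the flank 7.40% were E1, against 11.0% in leaf, and 58.5% were E2, against 62.2% in leaf. The outer border was sharper. E1 was at 33.0% in the last bin inside it and at 4.83% in the first bin outside. In that first outer bin E7 was at 16.7% in vernalized leaf, against 55.5% in leaf, and E6 at 17.4%, against 8.99%. E9 was at 42.6% in vernalized leaf and 33.5% in leaf.

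Where E1 persisted, its outer edge was more often kept than its E2 edge. Exactly 1 E1 run of vernalized leaf overlapped 22849 of the one-sided runs, 928 were overlapped by more and 24783 by none. In the 22849, the outer edge stood at the same bin in 60.0%, lay inside the leaf run in 32.4% and beyond it in 7.68%. The E2 edge stood at the same bin in 39.1%, lay inside in 27.9% and reached into the former E2 flank in 33.0%. Both edges were the same in 5354 runs (23.4%). The mean length of the E1 run was 500 bp in vernalized leaf and 506 bp in leaf. Counted positive outward, the mean shift was 61.1 bp at the E2 edge and −67.7 bp at the outer edge.

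The flanks differed with the state that the one-sided run took. The E2 flanks of runs that were wholly E1 in vernalized leaf had 80.7% of their bases in E2, those of runs wholly E2 85.5%, and those of runs wholly E9 62.9%, with 30.3% in E9. The E7 neighbour, accessible only in leaf, had 22.3% of its bases in E7, 22.6% in E6 and 34.4% in E9. Next to the runs that were wholly E6 in vernalized leaf, 67.5% of the E7 neighbour was also E6. Next to those wholly E9, 81.6% of it was E9, and next to those wholly E7, 70.1% was E7. A lost E1 run and its narrow accessible neighbour thus mostly shared 1 state in vernalized leaf when that state was E6, E7 or E9. Next to runs wholly E2 the neighbour was in E2 for 32.8% and in E9 for 44.0%. These shares are descriptions over adjacent bins, which are not independent.

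The rule was then applied to the vernalized leaf segmentation itself. It selected 54580 of 61454 E1 runs (88.8%) there, against 73691 (83.7%) in leaf, a ratio of 0.741. Both-sided runs numbered 23067 in vernalized leaf and 25131 in leaf, a ratio of 0.918. One-sided runs numbered 31513 and 48560, a ratio of 0.649, and E1 runs without E2 numbered 6874 and 14395, a ratio of 0.478. The mean length of the bordering runs was 449 bp in each condition. Read backward, the bordering runs of vernalized leaf had 51.4% of their bases in E1 and 42.7% in E2 in leaf, with 1.67% in E9.

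The neighbour opposite E2 also differed. E6 stood there at 10221 one-sided runs (32.4%) in vernalized leaf and at 4365 (8.99%) in leaf. E7 stood there at 10220 (32.4%) in vernalized leaf and at 26954 (55.5%) in leaf, and E9 at 34.3% and 33.5%. Over the whole genome E6 covered 25.4 Mb in vernalized leaf and 12.7 Mb in leaf, and E7 64.6 Mb and 48.0 Mb, so E7 was less frequent beside these runs in vernalized leaf while its genome-wide length was greater. Of the leaf one-sided runs with exactly 1 E1 run left, 73.9% were again one-sided in vernalized leaf, 15.9% had E2 on both sides and 10.2% on none. Of the 8865 both-sided runs with 1 E1 run left, 54.5% were again both-sided and 39.5% one-sided.

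**Figure D4:**
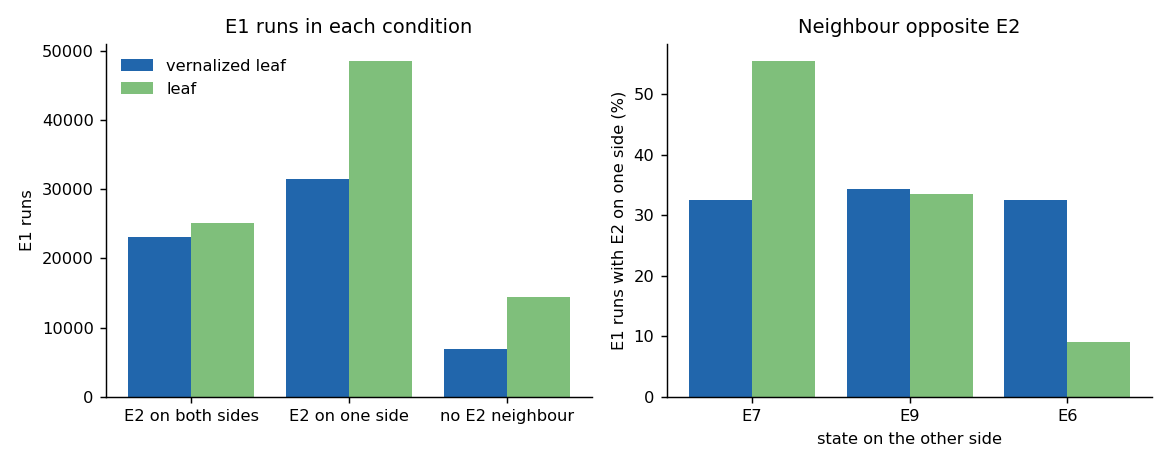
Left, number of E1 runs with E2 on both sides, on one side and on no side in vernalized leaf and in leaf. Right, state opposite E2 (% of one-sided runs) in vernalized leaf and in leaf, where E7 stands at 32.4% and 55.5% and E6 at 32.4% and 8.99%.

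The other neighbour in leaf went with the state in vernalized leaf. One-sided runs with E7 opposite E2 had 44.1% of their bases in E1 in vernalized leaf and 36.7% in E2, and 27.4% of them were wholly E1. Those with E6 opposite had 41.0% in E1 and 17.1% in E6, and those with E9 opposite 32.8% in E1, 45.0% in E2 and 11.8% in E9. With E5 opposite, the 258 runs had 27.8% in E1, 37.0% in E2 and 3.11% in E5. The 144 runs with E4 opposite had the lowest share of E1, 14.5%. These shares were not tested against each other.

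Along the chromosomes the bordering runs were most frequent toward the ends and had their highest mean length in the middle. With each chromosome divided into 20 blocks of equal length, there were 6.36 bordering runs per Mb in block 1 and 7.52 in block 20. The highest density was 7.60 in block 19 and the lowest 3.23 in block 7. Mean length was highest in block 9, at 681 bp, and lowest in block 4, at 382 bp, with 452 bp in block 1 and 462 bp in block 20. The share of single-bin runs did not follow this order, with 48.4% in block 7, 42.5% in block 9 and 41.8% in block 20. The share of E1 runs that bordered E2 was highest in block 7, 87.9%, and lowest in block 20, 77.3%.

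The share in E1 in vernalized leaf had its highest value in block 9, at 46.6%, and lower peaks at the ends, 39.4% in block 1 and 42.9% in block 20. Between these it was lowest in block 4, at 32.5%. Blocks 9 and 4 also had the highest and lowest mean run length, and the shares by block were not standardised for length. These are shares of bases. Counted as runs, blocks 9 and 20 were alike, with no E1 base in 47.9% and 48.0% of their runs. Wholly E1 were 24.2% in block 9 and 24.5% in block 20. E6 was at 2.67% in block 9 and at 8.20% in block 17. The long both-sided runs were concentrated in the middle blocks: of the 182 above 5000 bp, 155 (85.2%) lay in blocks 7 to 11, which held 17.5% of all bordering runs. Of the 8 one-sided runs of that length 3 lay there, and of the 196 one-sided runs above 2000 bp 32 (16.3%).

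**Figure D5:**
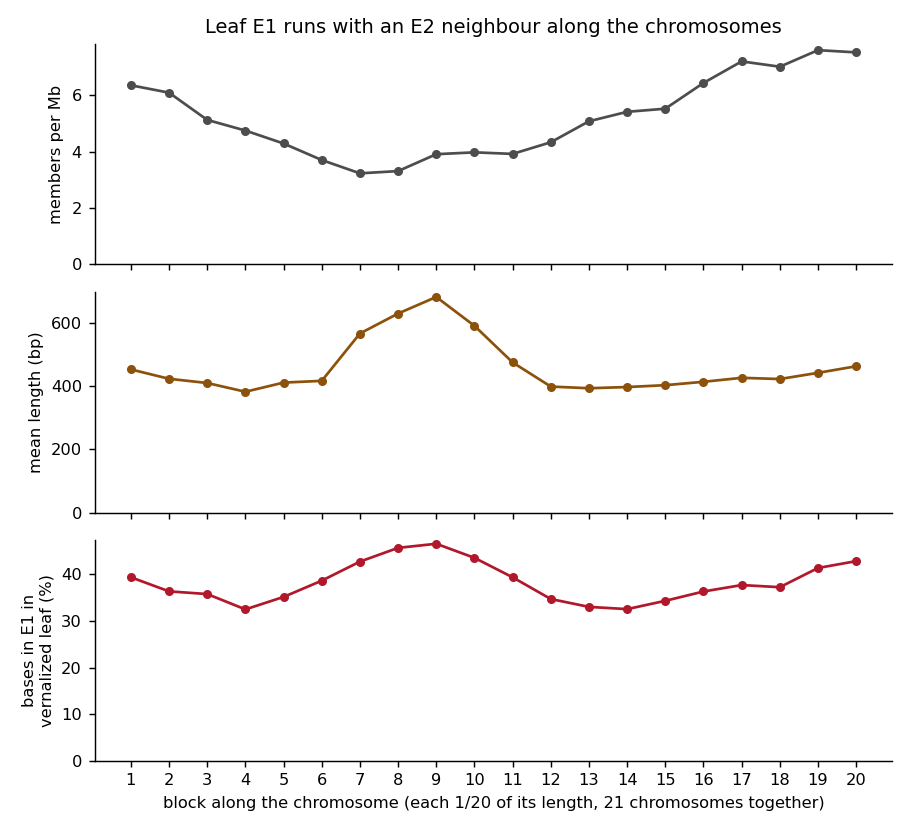
Bordering runs per Mb (top), their mean length in bp (middle) and the share of their bases in E1 in vernalized leaf in % (bottom), in 20 blocks of equal relative length along the 21 chromosomes together. Density is lowest in block 7 (3.23 per Mb), and length and the E1 share are highest in block 9 (681 bp and 46.6%).

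The longest both-sided run lay at chr3B:325818001-325840400, 22400 bp between E2 runs of 1000 and 2000 bp. In vernalized leaf 44.6% of it was E1 and 55.4% E2. The longest one-sided run, chr4B:334078601-334103000, was 24400 bp long with E2 before it and a single E7 bin after it, and 91.0% of it was E1 in vernalized leaf. The longest run that was wholly E1 in both conditions was 9800 bp for one-sided runs (chr2B:367719201-367729000) and 9600 bp for both-sided runs, where 2 runs tied (the first at chr2D:274416401-274426000). These 4 long regions lay in blocks 8 to 10 of their chromosomes. Gene models of this build were not used here, so the regions are given without genes.

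The longest runs that took another state throughout were shorter than the longest wholly E1 run of the same kind. These are single longest runs from sets of unequal size. One-sided runs wholly in E1, E2, E6, E7 or E9 each had a median length of 200 bp. Wholly E2 in vernalized leaf were at most 8200 bp of a both-sided run (chr6A:263898201-263906400) and 4200 bp of a one-sided run (chr7A:275962601-275966800). Wholly E6 were at most 1200 bp (chr5D:1610601-1611800) of a both-sided and 1800 bp (chr3D:61567201-61569000) of a one-sided run, which had E6 on its other side in leaf. Wholly E7 were at most 800 bp of a both-sided run (chr6B:611698001-611698800) and 600 bp of a one-sided run, a length that 16 runs shared (the first at chr1B:256823601-256824200). Wholly unmodified were at most 1800 bp of a both-sided run (chr7A:4429201-4431000) and 2200 bp of a one-sided run (chr6D:335374201-335376400).

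The sub-genomes differed in the density of bordering runs more than in their states. The A sub-genome held 25957, the B sub-genome 23069 and the D sub-genome 24665. Per Mb this was 5.26 ± 0.457 in A, 4.45 ± 0.527 in B and 6.25 ± 0.492 in D (SD, 7 chromosomes each), a description of leaf values. The B value includes the sparse first part of 1B given below. Bordering runs made up 83.6% ± 0.558 of all E1 runs in A, 83.3% ± 0.713 in B and 84.2% ± 0.597 in D. The difference in density was thus not particular to the bordering runs. The share with E2 on both sides was 33.7% ± 1.10 in A, 34.6% ± 1.06 in B and 34.2% ± 1.21 in D, and mean length was 441 ± 13.9, 455 ± 16.1 and 453 ± 18.3 bp. Chromosome 5D had the highest density, 6.98 per Mb, and 1B the lowest, 3.41. In the first 240 Mb of 1B there were 16 bordering runs, 0.0667 per Mb, against 5.19 per Mb in the rest of that chromosome.

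In vernalized leaf, E1 covered 38.7% ± 1.05 of bordering bases in A, 38.6% ± 0.583 in B and 38.8% ± 1.47 in D. None of the 3 pairwise differences in E1 was larger than its spread over chromosome groups, with 0.0784 ± 1.27 points for A minus B, −0.134 ± 1.78 for A minus D and −0.213 ± 1.77 for B minus D (SD, exact permutation p between 0.703 and 0.906). Of the 15 comparisons between sub-genomes, adjusted p was under 0.05 in 2 (exact sign-flip permutation test, p = 0.0156, adjusted p = 0.0276 each). E9 was at 6.31% ± 0.450 in A and 5.76% ± 0.350 in B, higher in A in 7 of 7 groups, and E6 was at 5.60% ± 0.670 in B and 6.31% ± 0.413 in D, lower in B in 7 of 7. Neither call held among runs of at least 600 bp, with an adjusted p of 0.165 for E9 and 0.0670 for E6 (exact permutation test), and with length classes standardised that of E9 was 0.0827. By chromosome, the E1 share ran from 37.0% on 7D to 40.4% on 4D, and the E2 share from 43.4% on 3A to 48.2% on 6B. E6 was lowest on 7A, 4.55%, and highest on 2D, 7.01%, and E9 was lowest on 3B, 5.35%, and highest on 7A, 6.97%.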

How the data were processed

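ChIP-seq reads of leaf and vernalized leaf were trimmed with fastp v0.21.0, aligned with Bowtie2 v2.3.5.1 and filtered with SAMtools and Picard by the authors, who gave the peaks to ChromHMM. The deposited values are state labels for segments, 1 file per condition, with no count or signal, so read depth and its precision are unknown. How replicates were combined, and whether 1 model served both conditions, is not given in the sources used here. Weak peaks and library depth can shift state borders.

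Segments tiled the 21 chromosomes in multiples of 200 bp. Neighbouring segments of equal state were merged, and 25337 of the bordering runs (34.4%) joined several deposited segments. Shares are percentages of bases. Sets were compared by sign-flip permutation over 7 chromosome groups (exact, two-sided) with Benjamini-Hochberg adjustment over 30 comparisons (Python 3.11.15, numpy 2.4.6, scipy 1.17.1, matplotlib 3.10.9), tested on simulated data. Regions named are the longest run, and the longest wholly in 1 state in vernalized leaf, of each kind, and the chromosomes named are those with the extreme values. Members, sets and tests were chosen with earlier results of these data known, among them the split of chromosome 1B. Alternatives were a minimum run length, other definitions of the neighbour, length standardisation, runs counted in place of bases, end bins left out, and 1 chromosome group or the first 240 Mb of 1B left out.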

Additional observations from a re-analysis of the deposited data

Results flagged for a closer look

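The 2 differences between sub-genomes that passed the test are given here because all 7 chromosome groups had the same direction. The share of bordering bases that were unmodified (E9) in vernalized leaf was 0.556 ± 0.508 percentage points higher in A than in B (SD, 7 of 7 groups). The share in E6 was lower in B than in D, with a difference of −0.703 ± 0.428 points (7 of 7 groups). Both had p = 0.0156 in the exact two-sided sign-flip permutation test, the smallest it can give, and an adjusted p of 0.0276. Both are small beside the E1 and E2 shares, and with length classes standardised the first was 0.406 points with an adjusted p of 0.0827 and the second −0.579 points with an adjusted p of 0.0293. Among runs of at least 600 bp neither passed, with 0.596 points (adjusted p = 0.165) for the first and −0.991 points (adjusted p = 0.0670) for the second.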

How the results depend on the processing

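No paired analysis was possible because the replicate numbers of the labels belong to single libraries and each condition has 1 segmentation. The share of bordering bases in E1 in vernalized leaf was 43.9% in runs of at least 600 bp, 49.9% in these without their first and last bin, 39.8% by the main state of each run, and 37.8% with E2 neighbours of at least 600 bp. The share in E2 was 43.2%, 42.0%, 46.1% and 48.3% under the same 4 settings, and 45.2% when E2 within 200 bp counted as a neighbour. E1 exceeded E2 in the 2 settings limited to runs of at least 600 bp. Runs with no E1 base were 28.9% from 600 bp up, 55.7% with E2 within 200 bp, 56.5% with longer E2 neighbours and 46.9% when E1 within 200 bp counted. Runs wholly E1 were 12.2%, 21.3%, 21.1% and 43.8%.

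Among runs of at least 600 bp, the E1 difference was −1.20 points for both sides minus one side (adjusted p = 0.449, exact sign-flip permutation test), 2.62 for the E2-facing minus the outer bin (0.0938) and, with its sign reversed, −4.30 for bordering minus other runs (0.0361). Runs of at least 600 bp mix length classes, so these are not differences at like length. The sub-genome differences in E1, all far from the threshold, reversed to 0.291 (A minus D) and 0.202 (B minus D) at this length. With length classes standardised, both sides minus one side was −6.06 for E1 (adjusted p = 0.0293), A minus D was 0.105 for E1 and A minus B −0.00424 for E6. Leaving out 1 chromosome group at a time, which raises the smallest possible p, the E1 difference ran between −4.21 and −3.31 for both sides minus one side, 4.65 and 5.40 for bordering minus other runs, and 3.83 and 4.37 for the E2-facing minus the outer bin. Adjusted p in all 3 was 0.0469 without group 3 and 0.0551 without any other group, with all 6 remaining groups in the same direction. Between sub-genomes it ran between −0.252 and 0.339 (A minus B), −0.626 and 0.193 (A minus D), and −0.600 and 0.156 (B minus D). E6 for A minus B lay between −0.0458 and 0.153, and E7 for B minus D between −0.108 and 0.0247. Leaving out the first 240 Mb of 1B changed no direction and no call. The segmentations hold no depth, so how many calls rest on weak peaks is unknown.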
